A study of Homo sapiens with 36 samples.

Results

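TXNL1 is a thioredoxin-like protein that binds the proteasome, and the D162R R234D variant carries the 2 substitutions made to disrupt that binding. The comparison described here is arsenite against no oxidant in *TXNL1* KO HEK293T cells expressing D162R R234D TXNL1. Its members are the 6 messenger RNA libraries, of 36 in the series, that the sample labels give to this variant with arsenite or with the DMSO solvent. HEK293T is a human embryonic kidney cell line. The study's methods describe knockout with a CRISPR plasmid, outgrowth of clones from single sorted cells, and stable complementation by lentiviral transduction. The *TXNL1* KO background is common to the 4 lines, which carry an empty vector or WT, D162R R234D or SxxS TXNL1, SxxS being the thioredoxin mutant. Each line was left untreated or given arsenite or hydrogen peroxide, in 3 replicates. According to the methods the exposure was 6 h, at 100 µM arsenite or 600 µM peroxide, and the labels give neither dose nor time. The methods state treatment in triplicate in multi-well plates, and nothing in the labels says that replicates came from separate cultures. The p-values measure the spread between replicates within groups, estimated over all 36 libraries, and that spread may be technical. The stability of the TXNL1 protein was not measured by these RNA counts.

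Arsenite is a trivalent arsenic compound that reacts with closely spaced thiols in proteins. In many cell types it is known to activate heat shock factor 1, which induces chaperones, the metal sensor MTF1, which induces metallothioneins, and NRF2, which induces antioxidant enzymes. It also causes phosphorylation of eIF2α, which slows translation while favouring that of ATF4, and activates the stress kinases p38 and JNK, upstream of the immediate early genes.

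The 6 libraries held 52383206 to 82661137 counts. Among 12043 genes with a mean of at least 5 CPM (counts scaled to a common library size), each library was set against its group's median for each gene. The arsenite libraries deviated from these medians by an SD of 0.059 to 0.077 on the log2 scale. The untreated libraries deviated by 0.067 to 0.168, with replicate 3 the farthest from its group. Mitochondrial genes took 0.708% to 0.954% of the counts. Of 6 listed HEK293T markers, *VIM* (445 to 486 CPM), *CDH2* (50.8 to 62.4 CPM) and *INA* (14.2 to 22.2 CPM) were present in every library. The others were low, *NEFL* at 0.791 to 2.68 CPM, *PAX2* at 0.231 to 0.816 CPM and *NEFM* at 0 to 0.212 CPM. Of 12 markers of blood, liver, skin, endothelium and fibroblasts, 3 had over 1 CPM, *COL1A1* and *COL3A1* among them, and the 12 together summed to 29.6 to 33.1 CPM in untreated and 24.5 to 29.4 CPM in arsenite libraries. Their part in the results was not tested.

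Arsenite changed the level of 9898 of 22486 genes tested (44%) in D162R R234D cells, called at 0.05 after Benjamini-Hochberg adjustment of edgeR's quasi-likelihood p-values. Of these, 5064 rose (22.5% of those tested) and 4834 fell (21.5%). Among called genes whose mean reached 10 CPM in either group, the 15 largest rises included chaperone and immediate early genes, and the 15 largest falls included *ID2*, *MYC* and several genes with few introns. Most called changes were small, since 6853 of the 9898 (69.2%) were under 1 on the log2 scale. At least 2-fold changes were called for 1717 rises (7.64%) and 1328 falls (5.91%), and changes of at least 3 on the log2 scale for 105 rises and 28 falls. The median log2 fold change over all genes tested was 0.04. By the same test 231 genes (1.03%) were called with hydrogen peroxide in this line, a comparison that shares the untreated libraries. In 13258 genes (59% of those tested) the 3 arsenite values did not overlap the 3 untreated ones, and 9730 of the called genes were among them.

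**Figure D1:**
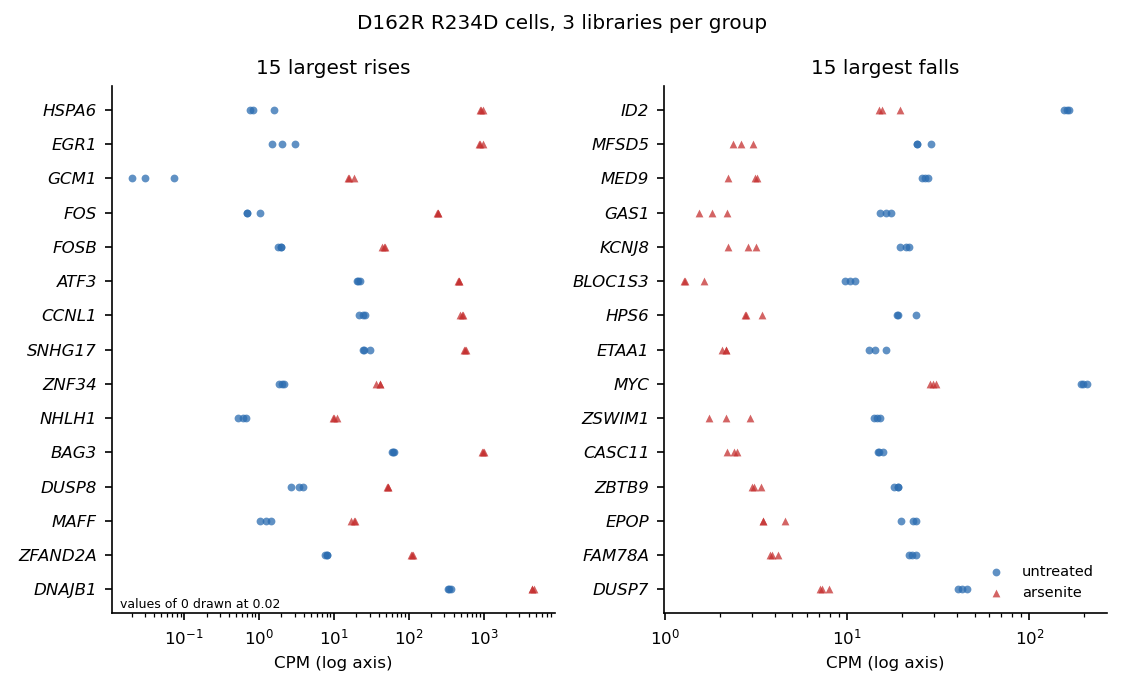
Levels of the 15 largest rises and the 15 largest falls in D162R R234D cells among genes reaching 10 CPM, in CPM on a log axis, with 1 point per library (circles untreated, triangles arsenite). In each of the 30 genes the 3 arsenite libraries lie on one side of the 3 untreated libraries, as the rule for choosing them required.

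The heat shock chaperones, which fold nascent and damaged proteins, included the gene with the largest change of those tested. *HSPA6*, a strictly stress-inducible HSP70 on chromosome 1 (chr1:161524540-161526894, GRCh38, plus strand, a single exon), was at 0.77, 0.832 and 1.58 CPM in untreated cells and 989, 883 and 915 CPM with arsenite. All arsenite libraries were therefore far above all untreated ones, a log2 fold change of 9.82 ± 0.49 (SE from the fit of all 36 libraries, with 3 per group). Its adjusted p was 3.36e-16 (edgeR quasi-likelihood, Benjamini-Hochberg). *HSPA6* shares sequence with the pseudogene *HSPA7*, which lay below the count filter, so reads may be split between them.

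*DNAJB1*, an HSP40 co-chaperone of HSP70, had 335, 346 and 372 CPM in untreated and 4765, 4449 and 4445 CPM in arsenite libraries, and rose by 3.70 ± 0.07. *BAG3*, a nucleotide exchange factor that directs clients to autophagy, went from 60.7 to 63.3 CPM up to 962 to 1021 CPM (4.0 ± 0.06). Both sets of libraries were tight and did not overlap. The cytosolic HSP90 genes rose less, *HSP90AB1* by 0.90 ± 0.06 and *HSP90AA1* by 0.64 ± 0.13, from levels already at 2510 to 3156 CPM.

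Of the 26 listed chaperones and heat shock factors, 25 were tested, 19 rose, 1 fell and 5 did not pass the test. The median log2 fold change was 0.74. Over all genes tested the median was 0.04, and 22.5% rose and 21.5% fell, shares against which each list's counts are to be read. The summed level of the list went from 17699 to 17938 CPM in untreated cells to 29636 to 31311 CPM with arsenite. Calls for *HSPB1* and *HSF2* were lost under at least 1 alternative, with highest adjusted p of 0.054 and 0.159 in edgeR's quasi-likelihood test. The member that fell was *HSPA8*, the constitutive HSP70, from 4241, 4050 and 4086 CPM to 2625, 2536 and 2435 CPM (−0.70 ± 0.05). SnoRNA genes lie within *HSPA8*. *HSPA1A* (0.20 ± 0.25) and *HSPA1B* (−0.01 ± 0.09), near-identical inducible HSP70 genes between which reads can be split, did not pass, and neither did *HSF1* itself (−0.08 ± 0.09).

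The stretches of 250 bases before the starts of *HSPA6* (chr1:161524290-161524539, plus strand) and *HSPA8* (chr11:123062137-123062386, minus strand) are shown because these HSP70 genes moved in opposite directions. Sequences are from RefSeq on GRCh38.p14, 5′ to 3′, with the heat shock element in capitals. The element was searched on both strands as 3 alternating GAA and TTC triplets with 2 free bases between neighbours, and matches may overlap in longer arrays.
HSPA6: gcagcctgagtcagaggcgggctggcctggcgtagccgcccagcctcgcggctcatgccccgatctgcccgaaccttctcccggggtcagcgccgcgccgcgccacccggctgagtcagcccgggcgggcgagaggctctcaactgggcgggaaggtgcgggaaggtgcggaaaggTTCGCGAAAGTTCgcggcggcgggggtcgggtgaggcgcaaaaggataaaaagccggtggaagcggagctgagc
HSPA8: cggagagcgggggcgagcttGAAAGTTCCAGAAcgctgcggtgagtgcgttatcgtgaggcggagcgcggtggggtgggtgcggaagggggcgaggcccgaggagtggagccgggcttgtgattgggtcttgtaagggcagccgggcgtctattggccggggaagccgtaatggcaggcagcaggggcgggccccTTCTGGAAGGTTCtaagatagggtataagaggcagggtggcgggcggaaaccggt
The *HSPA6* stretch held 1 match, whose near end lay 62 bases before the start, and the *HSPA8* stretch held 2, the nearer ending 43 bases before the start. The element occurred in 0.441% of all 35116 RefSeq stretches and in 8 of the 23 listed chaperone genes that had one. *DNAJB1* and *BAG3*, which rose most after *HSPA6*, were not among those 8. Of the 185 genes with such a stretch that rose at least 4-fold, 1 held the element, and it was *HSPA6*.

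Metallothioneins are small cysteine-rich proteins that bind metals and metalloids, and their transcription follows the zinc sensor MTF1. *MT2A* (chr16:56608584-56609497, GRCh38, plus strand) was at 12.7, 15.5 and 19.5 CPM without and 227, 171 and 208 CPM with arsenite, a rise of 3.67 ± 0.29. *MT1X* went from 14, 14.1 and 19.2 CPM to 158, 109 and 153 CPM (3.15 ± 0.23). In both, every arsenite library was several times above the highest untreated one. The zinc exporter gene *SLC30A1* rose by 1.52 ± 0.16 and *MT1F* by 0.87 ± 0.20. *MTF1* itself did not pass the test (−0.19 ± 0.11). Of the list of metallothioneins and MTF1 targets, 4 of 5 members tested rose and 0 fell, and the median, 1.52, is the value of *SLC30A1*. The other 6 of the 11 listed genes, all metallothioneins and among them *MT1E*, *MT1G* and *MT1M*, had too few counts to be tested, and reads from this closely related family can be split between its members.

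The 250 bases before *MT2A* (chr16:56608334-56608583, plus strand) and *MT1X* (chr16:56682220-56682469, plus strand) are given with matches to the metal response element core in capitals. The core was searched as TGCACNC and TGCGCNC on both strands.
MT2A: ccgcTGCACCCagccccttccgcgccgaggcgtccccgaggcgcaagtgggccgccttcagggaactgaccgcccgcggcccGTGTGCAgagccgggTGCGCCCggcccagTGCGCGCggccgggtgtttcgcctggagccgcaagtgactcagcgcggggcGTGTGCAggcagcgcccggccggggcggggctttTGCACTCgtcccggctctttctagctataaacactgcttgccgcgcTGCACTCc
MT1X: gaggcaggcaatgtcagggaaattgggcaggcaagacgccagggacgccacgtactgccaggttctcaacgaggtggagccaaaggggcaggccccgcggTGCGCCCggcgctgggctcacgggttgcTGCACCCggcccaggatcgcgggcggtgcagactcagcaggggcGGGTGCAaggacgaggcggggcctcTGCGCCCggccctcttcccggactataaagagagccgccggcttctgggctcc
There were 7 matches before *MT2A* and 4 before *MT1X*. So short a motif is common, since 24.8% of all stretches and 38.9% of those of tested genes held at least 1. Among genes that rose at least 4-fold the share was 40%, and among those that fell as much 34.3%.

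Immediate early genes are transcribed without new protein synthesis after growth factor or stress kinase signals. *EGR1*, a zinc finger transcription factor (chr5:138465479-138469303, GRCh38, plus strand), went from 1.5, 2.01 and 2.99 CPM to 972, 896 and 862 CPM, a rise of 8.74 ± 0.34 with an adjusted p of 8.80e-19 in edgeR's quasi-likelihood test. *FOS*, a subunit of the AP-1 transcription factor, was at 0.696, 0.696 and 1.04 CPM and reached 244, 247 and 237 CPM (8.25 ± 0.24). No arsenite library of either gene came near an untreated one. *FOSB* rose by 4.61 ± 0.14, and *JUN*, the partner of *FOS*, by 3.19 ± 0.08, from 100, 106 and 116 CPM to 1053, 964 and 910 CPM.

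The list did not move one way. Of 24 members tested, 13 rose, 8 fell and 3 did not pass, with a median of 0.78. *MYC*, a growth-promoting transcription factor, fell from 191, 198 and 207 CPM to 30.7, 29.5 and 28.4 CPM (−2.75 ± 0.05, adjusted p = 3.67e-26 by edgeR's quasi-likelihood test). *IER5* fell by 2.11 on the log2 scale, *KLF6* by 1.79 and *JUNB* by 0.92. *CASC11*, which overlaps *MYC* on the other strand, also fell, by 2.69, and its reads cannot be told apart from those of *MYC* if strand was not used in counting.

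The 250 bases before *EGR1* (chr5:138465229-138465478, plus strand) follow with CArG boxes, the sites bound by serum response factor, in capitals. *CCNL1*, a cyclin-like splicing regulator among the largest rises, is shown on its own stretch (chr3:157160148-157160397, minus strand) with the palindrome TGACGTCA, the cAMP response element (CRE) that ATF and CREB factors bind, in capitals.
EGR1: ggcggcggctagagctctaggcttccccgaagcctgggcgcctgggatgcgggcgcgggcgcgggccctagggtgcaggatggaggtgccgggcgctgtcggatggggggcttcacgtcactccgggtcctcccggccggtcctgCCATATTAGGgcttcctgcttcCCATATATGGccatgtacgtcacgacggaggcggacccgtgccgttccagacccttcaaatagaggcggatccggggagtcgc
CCNL1: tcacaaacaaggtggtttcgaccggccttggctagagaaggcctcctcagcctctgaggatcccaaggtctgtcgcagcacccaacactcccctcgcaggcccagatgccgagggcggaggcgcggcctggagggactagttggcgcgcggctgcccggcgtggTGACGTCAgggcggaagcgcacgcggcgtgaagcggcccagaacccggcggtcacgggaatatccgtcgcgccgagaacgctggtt
The *EGR1* stretch held 2 CArG boxes, a motif present in 1.16% of all stretches, and 3 of the 19 immediate early genes with a stretch held one. A CArG box occurred in 1.44% of the stretches of tested genes and in 1.08% of those of the 185 genes that rose at least 4-fold. The palindrome occurred in 1.65% of all stretches, in 3.26% of those of tested genes, in 13 of the 185 genes that rose at least 4-fold (7.03%) and in 0 of the 102 that fell as much. Those 13 included *CCNL1*, *DUSP1*, *DUSP8*, *MAFF* and *PPP1R15A*. Only 1 of the 19 immediate early genes with a stretch held the palindrome, *JUND*.

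The MAP kinase phosphatases (DUSP genes) remove the activating phosphates from ERK, p38 and JNK. *DUSP8*, which acts mainly on JNK and p38, went from 2.70, 3.43 and 3.93 CPM to 51.8, 52.7 and 53.3 CPM (3.98 ± 0.12). *DUSP16* rose by 2.48 ± 0.13 and *DUSP1* by 2.34 ± 0.08. In all, 6 of 9 rose and 1 fell, with a median of 1.13. The one that fell was *DUSP2* (−2.31 ± 0.14), from 11.5 to 15.1 CPM down to 2.49 to 2.84 CPM. *DUSP7*, an ERK phosphatase outside that list, was among the 15 largest falls (−2.52 ± 0.07).

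ATF4 is the transcription factor of the integrated stress response, and its protein level is set largely at translation. The *ATF4* transcript itself rose little, from 537, 569 and 613 CPM to 739, 771 and 750 CPM (0.39 ± 0.12). Its arsenite and untreated values did not overlap, and edgeR's quasi-likelihood test gave an adjusted p of 0.0107, which became 0.0515 without untreated replicate 1. Some of its targets moved much further. *ATF3*, a transcription factor of the same family, went from 20.1, 20.9 and 22.4 CPM to 467, 455 and 475 CPM (4.46 ± 0.07). *SESN2*, a stress-induced inhibitor of mTORC1, rose by 3.42 ± 0.06, *PPP1R15A*, which directs dephosphorylation of eIF2α, by 3.09 ± 0.08, and *CTH*, an enzyme of cysteine synthesis, by 3.06 ± 0.07.

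Of 24 targets tested, 20 rose, 2 fell and 2 did not pass, with a median of 0.83, and all 22 calls held under every alternative. Amino acid enzymes rose moderately, *ASNS* by 0.76 ± 0.06 and *PSAT1* by 0.63 ± 0.07. *CEBPB* fell by 1.16 on the log2 scale and *SLC7A5*, a leucine transporter, by 0.27. *GDF15*, with under 1 CPM in every library, did not pass (−0.45 ± 0.56).

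The endoplasmic reticulum chaperones did not follow the cytosolic ones. *HSPA5*, the HSP70 of the endoplasmic reticulum known as BiP, fell from 734, 716 and 729 CPM to 206, 209 and 198 CPM (−1.83 ± 0.05, adjusted p = 5.43e-22 by edgeR's quasi-likelihood test). The 3 arsenite libraries were far below every untreated one. *DNAJB9*, another chaperone of that compartment, fell by 1.23 on the log2 scale. *PDIA4* fell by 0.68, *HYOU1* by 0.49 and *HSP90B1* by 0.48. *XBP1*, a transcription factor of the unfolded protein response, rose by 1.20 ± 0.05 and its activating kinase gene *ERN1* by 1.01 ± 0.24. The list held 4 rises, 8 falls and 7 members that did not pass, with a median of −0.30. *CALR* was the only one of these 12 calls lost under an alternative.

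NRF2 (*NFE2L2*) drives antioxidant and glutathione genes once released from KEAP1. *HMOX1*, the haem-degrading enzyme, went from 31.4, 34.8 and 37.7 CPM to 181, 172 and 172 CPM (2.34 ± 0.11). *NFE2L2* rose from 50.1 to 52.4 CPM up to 151 to 159 CPM (1.6 ± 0.06), and *KEAP1* fell by 0.53 on the log2 scale. *SLC7A11*, the cystine importer, was at 15.6, 15.9 and 10.7 CPM without and 34.2, 32.6 and 32.4 CPM with arsenite (1.23 ± 0.24). The classical targets *NQO1* (0.03 ± 0.10) and *GCLM* (0.06 ± 0.08) did not pass. *TXNRD1* (−0.33 ± 0.14) was just short of the threshold, with an adjusted p of 0.0508 by edgeR's quasi-likelihood test, and was called lower under 8 of 15 alternatives. *SRXN1*, which repairs overoxidized peroxiredoxins, fell from 38.9 to 44 CPM down to 15.4 to 16.1 CPM (−1.39 ± 0.06), and *GCLC*, the catalytic subunit of glutathione synthesis, fell by 0.50. In all, 7 of 19 targets tested rose and 4 fell, with a median of 0.10, where 22.5% of all genes tested rose and 21.5% fell, and 3 of these calls were lost under at least 1 alternative.

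**Figure D2:**
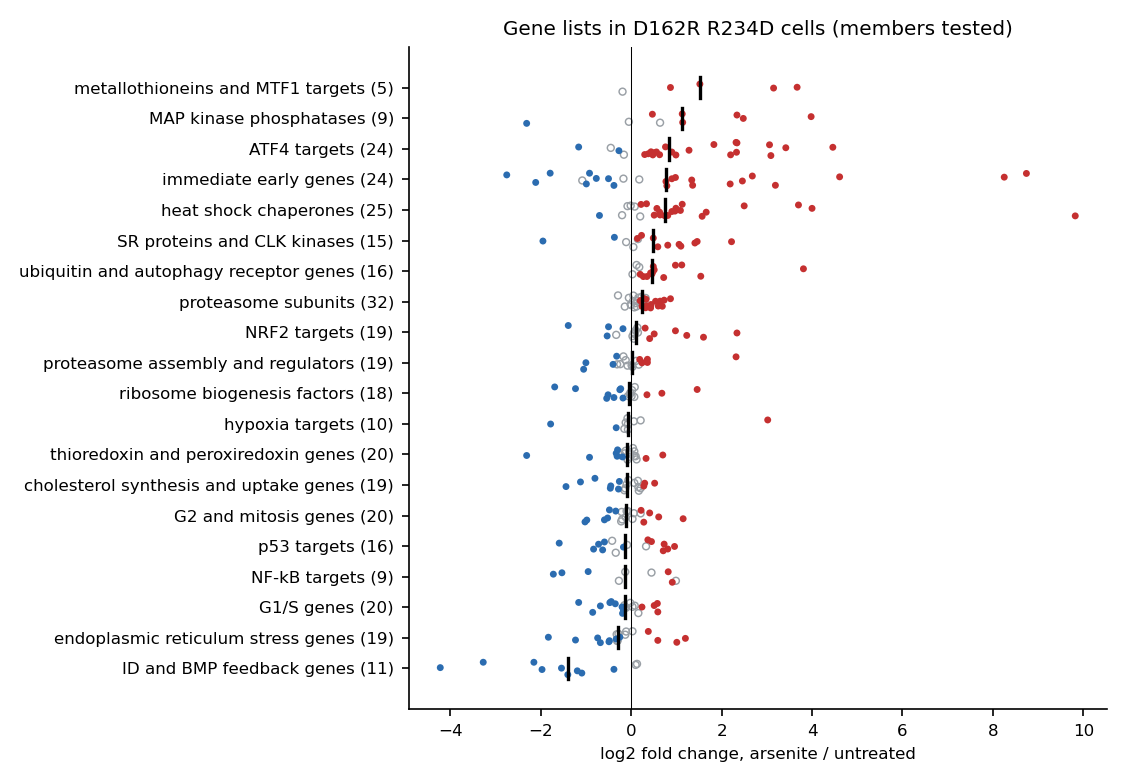
Log2 fold change (arsenite over untreated) of each tested member of the 20 gene lists in D162R R234D cells, with the number tested in brackets. Red and blue points were called higher and lower, open points did not pass the test, and black bars are medians, which run from −1.40 for the ID and BMP feedback genes to 1.52 for the metallothioneins and MTF1 targets.

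The proteasome degrades ubiquitylated proteins in its 20S core after the 19S particle, to which TXNL1 binds, has engaged them. Of 32 subunit genes, 15 rose, 0 fell and 17 did not pass, with a median of 0.25 and a range of −0.29 to 0.87. *PSMD1* (RPN2), a scaffold of the base, was at 269, 273 and 250 CPM in untreated and 427, 437 and 417 CPM in arsenite libraries (0.69 ± 0.05). *PSMD7*, partner of the deubiquitylase, showed the largest change (0.87 ± 0.12), and *PSMD14* (RPN11), the deubiquitylase itself, rose from 140 to 152 CPM up to 194 to 195 CPM (0.43 ± 0.07). The ubiquitin receptor *PSMD4* (RPN10) was at 178, 183 and 211 CPM and then at 222, 223 and 226 CPM (0.23 ± 0.14). Its groups did not overlap, yet it did not pass, with an adjusted p of 0.19 by edgeR's quasi-likelihood test. Only 10 of the 15 calls were kept under every alternative, *PSMA6*, *PSMC3*, *PSMC5*, *PSMC6* and *PSMD3* being lost under at least 1. Other subunits gained a call under some settings. *PSMD11* (−0.14, adjusted p = 0.0527 by edgeR's quasi-likelihood test) was called lower under 7 of 15 alternatives and *PSMB5* (−0.29) under 3. The absence of falls thus depended on the setting. *PSMD4* was called higher under 2 of 15, and *PSMA1*, *PSMA4* and *PSMB7* under 3.

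*NFE2L1*, the transcription factor that raises proteasome genes when proteasomes are inhibited, fell from 104 to 111 CPM down to 52.9 to 56.4 CPM (−1.0 ± 0.07). *DDI2*, the protease that activates its product, fell from 139, 133 and 104 CPM to 55.9, 62.6 and 62.4 CPM (−1.05 ± 0.21). *PITHD1*, which shares a PITH domain with TXNL1, rose by 0.24 ± 0.09, with an adjusted p of 0.0291 by edgeR's quasi-likelihood test that reached 0.15 under an alternative. Of 19 assembly and regulator genes, 6 rose and 4 fell, with a median of 0.01, beside 22.5% and 21.5% of all genes tested, and 4 of these calls were lost under at least 1 alternative.

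Ubiquitin and autophagy receptor genes rose in 13 of 16 cases, with 0 falls and a median of 0.47. *ZFAND2A* (AIRAP), an arsenite-inducible proteasome-associated protein, went from 8.05, 7.61 and 8 CPM to 112, 114 and 106 CPM (3.81 ± 0.18). *SQSTM1* (p62), a receptor that brings ubiquitylated cargo to autophagosomes, was at 130, 144 and 152 CPM without and 230, 230 and 242 CPM with arsenite (0.72 ± 0.08). The groups were apart in both genes. The call was lost under at least 1 alternative for 4 of the 13.

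*TXNL1* reads in D162R R234D cells come from the lentiviral copy and from whatever transcript the edited gene still makes. *TXNL1* lies at chr18:56597209-56651600 (GRCh38, minus strand) and overlaps *WDR7* on the other strand. Its level was 66.2, 59.3 and 63.2 CPM without and 108, 102 and 106 CPM with arsenite, a rise of 0.75 ± 0.06 with an adjusted p of 5.75e-12 by edgeR's quasi-likelihood test. The vector line, which has no lentiviral *TXNL1*, went from 31.7, 31.6 and 28.6 CPM to 71.9, 67.9 and 68.2 CPM (1.18). Both groups of libraries were apart in both lines, and the untreated D162R R234D libraries were close to the arsenite libraries of the vector line. On the linear scale the gains, which were not compared by a test, were 42.5 ± 2.83 CPM (SE) in D162R R234D cells, 38.7 ± 1.63 in vector, 45.7 ± 0.956 in SxxS and 46.1 ± 3.73 in WT cells. As ratios they were 1.68-fold, 2.26-fold, 1.86-fold and 1.85-fold.

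**Figure D3:**
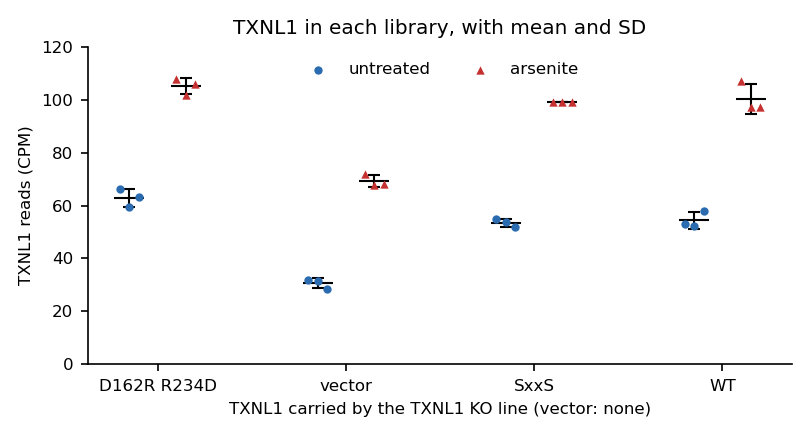
*TXNL1* level in CPM in each arsenite and untreated library of the 4 lines, with the mean and SD of 3 replicates. Arsenite libraries of D162R R234D cells lie at 102 to 108 CPM against 59.3 to 66.2 CPM untreated, and those of the vector line at 67.9 to 71.9 CPM against 28.6 to 31.7 CPM.

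The stretch before the RefSeq start of *TXNL1* (chr18:56638593-56638842, minus strand) is printed because *TXNL1* is the gene under study and rose in every line. The capitals mark 1 CRE palindrome, which ends 120 bases before the start.
TXNL1: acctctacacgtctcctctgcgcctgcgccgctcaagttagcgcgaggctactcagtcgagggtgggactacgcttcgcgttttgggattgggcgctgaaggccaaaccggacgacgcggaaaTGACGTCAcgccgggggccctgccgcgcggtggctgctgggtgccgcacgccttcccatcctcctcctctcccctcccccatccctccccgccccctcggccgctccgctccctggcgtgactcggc

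Among thioredoxin and peroxiredoxin genes, 2 of 20 rose and 6 fell, with a median of −0.10. *TXN* itself was at 260 to 297 CPM without and 260 to 273 CPM with arsenite (−0.04 ± 0.15), and did not pass. *TXNIP*, the inhibitor of thioredoxin, fell from 15.5, 15.8 and 16.6 CPM to 3.22, 3.34 and 3.06 CPM (−2.31 ± 0.09). The relative *TXNL4B* rose by 0.70 ± 0.07, while *TXNL4A* did not pass (−0.27 ± 0.13). *GLRX2* fell by 0.92 on the log2 scale and *PRDX3*, the mitochondrial peroxiredoxin, by 0.31. Of the 8 calls, 3 were lost under at least 1 alternative, those of *PRDX1*, *GLRX* and *GSR*.

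ID proteins block bHLH transcription factors and are induced by BMP signalling. *ID2* fell from 156 to 165 CPM down to 15 to 19.6 CPM (−3.27 ± 0.08, adjusted p = 1.98e-23 by edgeR's quasi-likelihood test). *ID4* fell from 43.6 to 45.3 CPM down to 9.73 to 10.5 CPM (−2.15 ± 0.07), *ID1* by 1.54 and *ID3* by 1.09. The BMP antagonist and feedback genes *BAMBI* (−1.97 ± 0.12) and *SMAD6* (−1.19 ± 0.10) fell with them, as did the ligand *BMP4* (−1.40 ± 0.10). Of 11 genes tested, 9 fell and 0 rose, with a median of −1.40, and all 9 calls held under every alternative. *NOG* had 44, 39 and 27 counts without and 0, 0 and 6 counts with arsenite, so its fold change is imprecise.

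Splicing regulators were another group with strong changes. *CLK1* rose from 30.9 to 33.5 CPM up to 145 to 155 CPM (2.22 ± 0.09) and *CLK4* by 1.41 ± 0.09, whereas *CLK2*, a kinase of the same family, fell from 51.3, 52.0 and 51.1 CPM to 14.1, 13.3 and 12.4 CPM (−1.95 ± 0.07). *SRSF5* rose by 1.46 ± 0.06 and *TRA2B* by 1.06 ± 0.04, while *SRSF1* fell by 0.37. Of 15 SR protein and CLK genes, 10 rose and 2 fell, with a median of 0.49, and 2 of these calls were lost under at least 1 alternative. *CCNL1* went from 26, 22 and 24.4 CPM to 533, 518 and 484 CPM (4.40 ± 0.08). Gene counts do not show which isoform was made.

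The remaining 7 lists held changes in both directions, as did all genes tested, of which 22.5% rose and 21.5% fell. In the hypoxia list only *VEGFA*, which encodes an angiogenic growth factor, rose, from 15.9, 16.9 and 17.4 CPM to 138, 136 and 134 CPM (3.02 ± 0.09). *EGLN3* (−1.78 ± 0.08) and *LDHA* (−0.33 ± 0.05) fell and the other 7 tested did not pass. For p53 targets 6 of 16 rose and 6 fell, with *CDKN1A* at 0.96 ± 0.13, *SESN1* at −1.59 ± 0.10 and *MDM2* at −0.83 ± 0.14. NF-kB targets gave 2 rises and 3 falls of 9 tested, the inhibitors *NFKBIA* (−1.72 ± 0.11) and *TNFAIP3* (−1.53 ± 0.16) among the falls.

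Of 20 G2 and mitosis genes 5 rose and 6 fell, shares near those over all genes (22.5% and 21.5%), with *CDC25C* at 1.15 ± 0.05 and *CCNB1* going from 353 to 366 CPM down to 176 to 179 CPM (−1.02 ± 0.05). Of 20 G1/S genes 4 rose and 9 fell, with *PCNA*, the replication clamp, going from 225 to 244 CPM to 103 to 106 CPM (−1.16 ± 0.08). Cholesterol genes held 3 rises and 7 falls of 19, *INSIG1* (−1.44 ± 0.06) and *SQLE* (−1.12 ± 0.10) falling most. Ribosome biogenesis factors held 3 rises and 8 falls of 18, from *NOP58* at 1.46 ± 0.12 to *RRS1* at −1.69 ± 0.08. The medians of these 7 lists lay between −0.14 and −0.05, and members of the hypoxia, mitosis and ribosome biogenesis lists changed more than 2-fold in both directions.

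Beyond the lists, the largest rises held *GCM1*, a placental transcription factor, with 6, 2 and 0 counts without and 814, 1519 and 1265 counts with arsenite. The neuronal bHLH gene *NHLH1* rose by 4.09 ± 0.22, from under 0.7 CPM, and *ZNF34* by 4.30 ± 0.24. *SNHG17*, a snoRNA host gene, went from 25.4, 24.8 and 30.0 CPM to 543, 568 and 574 CPM (4.39 ± 0.15), and 4 annotated snoRNA genes overlap it, so the reads may come from either. *MAFF*, a small Maf partner of NRF2, rose by 3.89 ± 0.19. Beside *ID2*, the largest falls were *MFSD5* (−3.27 ± 0.14), the Mediator subunit gene *MED9* (−3.23 ± 0.12) and *GAS1*, a membrane protein that binds hedgehog (−3.15 ± 0.13). The calls for the 30 largest changes held under every alternative, with a highest adjusted p of 2.09e-08.

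Of the 15 largest falls, 9 have 1 or 2 exons in their canonical transcript, among them *MFSD5*, *MED9*, *GAS1* and *HPS6*, against 3 of the 15 largest rises. Over all 14804 protein-coding genes tested, 25.5% rose and 25.9% fell. Among 392 genes with a single exon, 49.7% fell and 12.5% rose, with a median log2 fold change of −0.64. With 2 exons 46.2% fell and 10.8% rose (median −0.33, 756 genes), whereas with 11 to 20 exons 20.5% fell and 35.4% rose (median 0.13, 4137 genes). The share that fell thus dropped with exon number, and falls of at least 2-fold went from 35.2% at 1 exon to 1.99% above 20. Single-exon genes were also expressed at a lower level, with a median of 2.69 CPM in untreated cells beside 29.2 CPM at 11 to 20 exons. Among genes with a mean of at least 10 CPM over the 6 libraries, 76.3% of 114 single-exon genes fell, beside 25.1% of 2991 genes with 11 to 20 exons. The medians of single-exon genes were −0.58 in vector, −0.52 in SxxS and −0.54 in WT cells given arsenite. Genes are not independent replicates, so no test was made.

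**Figure D4:**
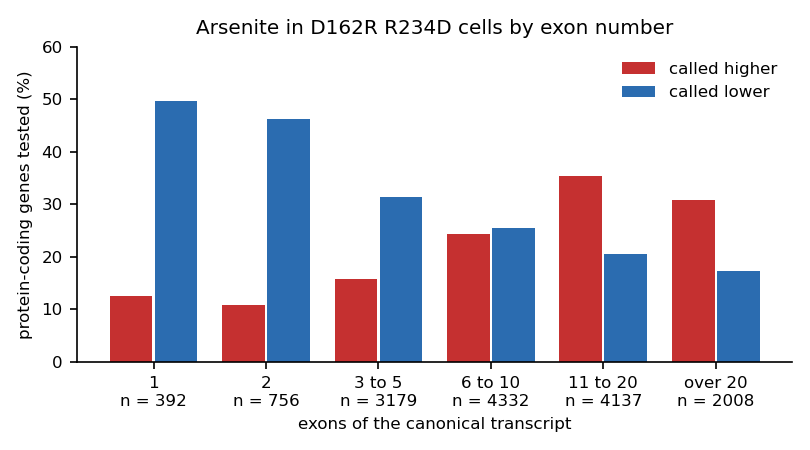
Percentage of tested protein-coding genes called higher (red) and lower (blue) with arsenite in D162R R234D cells, by exon number of the canonical GENCODE transcript. Called falls make up 49.7% of single-exon genes and 17.2% of genes with over 20 exons, while called rises go from 12.5% to 30.8%.

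Whether the response of the D162R R234D line differs from that of each other line was asked by testing the difference of their arsenite effects. Each variant was carried by a single line, so effects of the variant and of the line cannot be told apart. Against the vector line 0 of 22486 genes passed in edgeR's quasi-likelihood test after Benjamini-Hochberg adjustment (0%), with 430 (1.91%) at an unadjusted p under 0.05. That share is smaller than the threshold itself. The spread used in the test was shared by all 36 libraries. Among them were 2 WT libraries that stood apart from their groups and are outside this comparison. The smallest p belonged to *TXNL1*, whose log2 change was lower by 0.43 in D162R R234D cells (−0.43 ± 0.08, 95% interval −0.59 to −0.27, adjusted p = 0.235). DESeq2's Wald test called *TXNL1* alone, with an adjusted p of 0.00551. Without the 2 outlying WT libraries edgeR's quasi-likelihood test also called *TXNL1* alone, with an adjusted p of 0.00557. In simulated counts without outlying libraries, 74% of genes given a log2 difference of 1 were recovered in this test, beside 92% for the response.

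Against the SxxS line edgeR's quasi-likelihood test called 0 genes, with 714 (3.18%) at an unadjusted p under 0.05, and DESeq2 called 2. Without the 2 outlying WT libraries, which are outside this comparison too, edgeR's test called 10. *MAT2A*, which makes the methyl donor S-adenosylmethionine, was at 443, 443 and 446 CPM without and 90.4, 85.5 and 88.7 CPM with arsenite in D162R R234D cells (−2.33). The SxxS line went from 317 to 341 CPM to 100 to 105 CPM (−1.69), so that D162R R234D cells were above it before treatment and below it after. The difference was −0.64 ± 0.11 (95% interval −0.86 to −0.42), with an adjusted p of 0.104 in edgeR's quasi-likelihood test and 6.86e-04 in DESeq2. The quasi-likelihood test called this *MAT2A* difference with only the groups compared (2.25e-05) and without both outlying WT libraries (6.68e-08). *PDE6A*, the other gene with so small a p, rested on 10, 9 and 3 counts without and 0 with arsenite. *MAT2A* was not particular to the test against SxxS. Without WT arsenite replicate 1 its difference from WT was −0.6, with an adjusted p of 0.00265 in edgeR's quasi-likelihood test, though it was not called with all libraries.

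Against the WT line edgeR's quasi-likelihood test again called 0 genes, while 3603 (16%) had an unadjusted p under 0.05 and DESeq2 called 169. One WT arsenite library, replicate 1, stood apart, with an SD of 0.531 from its group medians. The SD was at most 0.168 in the 34 libraries other than it and a WT peroxide library. With both of these left out, 313 genes were called, and with WT arsenite replicate 1 alone left out, 4 were. The log2 fold change of *NFE2L2* was 1.6 in D162R R234D and 1.19 in WT cells, beside 1.46 in vector and 1.40 in SxxS cells. The difference from WT, 0.41 ± 0.08, did not pass (adjusted p = 0.134 by edgeR's quasi-likelihood test). It was called by DESeq2 (7.26e-04), without both outlying libraries (0.00136), and without WT arsenite replicate 2 (0.0324) or replicate 3 (0.0448). Leaving out the outlying replicate 1 alone did not give a call for *NFE2L2*. *DHX37*, an RNA helicase of ribosome assembly, had a difference of −0.41 ± 0.08 with the same adjusted p. That difference was called by DESeq2 (0.00125), without both outlying libraries (1.22e-04) and without WT arsenite replicate 1 (0.00559). The part of the outlying library in these values was not tested beyond leaving it out.

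Side by side, the lines gave similar fold changes. Of the 9898 genes called in D162R R234D cells, 9846 (99.5%) had the same sign in vector, 9814 (99.2%) in SxxS and 9506 (96%) in WT cells. Over 12043 genes with a mean of at least 5 CPM, Pearson's r between log2 fold changes was 0.986 with vector, 0.977 with SxxS and 0.895 with WT, as a description across genes, which are not independent replicates. The median absolute difference per gene was 0.06 from vector, 0.084 from SxxS and 0.211 from WT. The median SE of such a difference was 0.15 for each line. It comes from the spread shared by all 36 libraries, so it is no yardstick for any single line. The WT values in this comparison include the outlying arsenite replicate 1 and were not recomputed without it. A difference that misses the threshold does not show that the lines act alike.

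**Figure D5:**
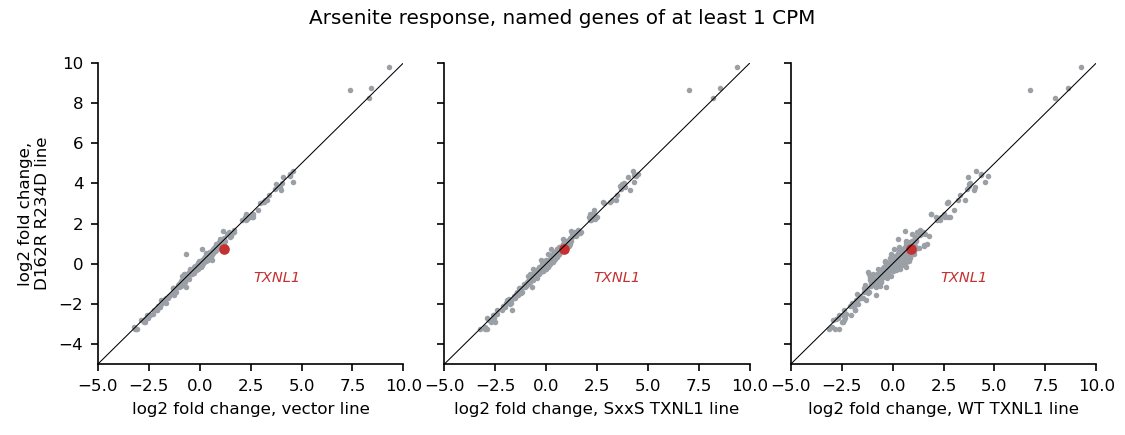
Log2 fold change with arsenite in D162R R234D cells (vertical axis) against that in the vector, SxxS and WT lines (horizontal axes), for 369 named genes with a mean of at least 1 CPM in either D162R R234D group. Points follow the line of equality, more loosely for WT, whose fold changes include the outlying arsenite replicate 1. *TXNL1* (red) lies below that line, at 0.75 against 1.18 in vector, 0.89 in SxxS and 0.89 in WT cells.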

How the data were processed

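Messenger RNA was sequenced from 36 libraries of 4 *TXNL1* KO HEK293T lines. According to the study's methods, the authors aligned 100-bp read pairs with qAlign (QuasR) to the primary assembly of GRCh38, and the submitters' processing notes name DESeq2. The authors deposited raw read counts per gene, with replicates not pooled, beside a length per gene that was not used here. The annotation release, the use of strand and whether both mates were counted are not given in the sources used here. The labels call the libraries strand-specific. Every count column was matched to a sample.

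Samples were grouped by line, treatment and replicate number from the labels. Gene IDs were matched to GENCODE release 44 (61415 of 61587 found), which gave symbols, positions, exon numbers and overlaps. For 57% of tested genes an exon overlaps a neighbouring gene. Genes with at least 10 counts over the 3 untreated vector libraries were tested, as in the study's methods, which left 22486 of 42726 genes with a count. edgeR 4.0.16 in R 4.3.3 was used with TMM scaling, a mean for each of the 12 groups, robust dispersions shared by the 36 libraries, and Benjamini-Hochberg adjustment over all tested genes. Calls were made at 0.05 on the adjusted p, and "rose" and "fell" are used of called genes. Levels are CPM on TMM-scaled library sizes, and intervals for differences are 1.96 SE to each side. SEs of log2 fold changes were derived from the quasi-likelihood statistic of the 36-library fit. They carry its shared spread and are not those of the 6 libraries alone. The differences between lines were tested as contrasts of contrasts in the same fit.

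The genes and the 20 lists were chosen with earlier results of these data known. The text names *TXNL1*, *ATF4*, *PSMD1*, *PSMD4*, *PSMD14*, *PITHD1*, list members, the 15 largest rises and 15 largest falls among called genes whose groups did not overlap and whose mean reached 10 CPM in either group, and the 5 genes of smallest p in each test between lines. The promoters printed and the exon classes were chosen after values were seen. Some members of the lists are not reported here by name. Promoters are RefSeq stretches (GRCh38.p14), found for 324 of 400 named genes.

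The code was tested on simulated counts for the 22486 genes with 200 of them shifted by 1 on the log2 scale. The 200 were drawn from genes with higher mean counts. No simulated library was made an outlier, whereas in the data 2 outlying WT libraries enter the spread shared by every test. The recovered shares may therefore not hold for the tests of the data, least of all for WT. The fit recovered 184 of 200 (92%) with 10 false calls of 194 for the response in D162R R234D cells. For the differences from vector, SxxS and WT it recovered 148, 147 and 147. The chi-square per degree of freedom between replicates was 3.85 to 35.24 in the untreated and arsenite groups of D162R R234D cells and 3.31 to 342.68 over the 12 groups, so none was a duplicate library and counting error alone understates the spread. Other settings tried were size factors from DESeq2, scaling by total counts, the DESeq2 1.42.0 Wald test, edgeR's filterByExpr, no filter, only the groups compared, leaving out 2 outlying WT libraries, the replicate number as a block, halved counts, and each library left out in turn.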

Additional observations from a re-analysis of the deposited data

Results flagged for a closer look

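Genes below the count filter of the untreated vector libraries had counts with arsenite. When edgeR's own expression filter was used, 633 further genes were tested, and 302 of them were called higher and 3 lower in D162R R234D cells by the quasi-likelihood test at an adjusted p under 0.05. Such genes enter that filter largely through groups where they are high, so this split was mostly fixed by how they were chosen and is given as a description only. Of the 302, 43 had no count in any untreated D162R R234D library. *HSPA7*, an HSP70 pseudogene close in sequence to *HSPA6*, had 1, 0 and 0 counts without and 2639, 5633 and 5729 counts with arsenite. *CRYAB*, a small heat shock protein of the chaperone list, had 2, 4 and 0 counts and then 136, 152 and 185. *TAGAP*, a GTPase-activating protein of T cells, had 0 counts in the untreated libraries and 158, 251 and 205 with arsenite. *CHRNA2* and *CHRM1*, acetylcholine receptor genes, went from 2, 0 and 0 to 106, 161 and 161 counts and from 0 in each to 86, 182 and 128 counts. The filter uses untreated cells alone, so genes that are silent without arsenite were left out of the comparisons above. *HSPA7*, *TAGAP*, *CHRNA2* and *CHRM1* were named after their values were seen.

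Hydrogen peroxide libraries of the same line are not part of the arsenite comparisons. In edgeR's quasi-likelihood test 231 genes were called (1.03% of those tested), 113 higher and 118 lower. The peroxide and arsenite comparisons share the untreated libraries. *CDKN1A* had a log2 fold change of 0.94 with peroxide and 0.96 with arsenite, *PHLDA3* 1.13 and −0.59, *PLK1* −0.82 and −0.07, and *HSPA6* 0.39 and 9.82. The median of single-exon genes was 0.05 with peroxide, beside −0.64 with arsenite.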

How the results depend on the processing

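The count of genes called with arsenite in D162R R234D cells, 9898, lay between 9084 (no filter) and 12793 (without both outlying WT libraries) over 9 alternatives, and between 8733 and 9231 with 1 library left out. Of the 9898 genes, 86.7% to 99.9% were called again, and 0 changed sign. Rises made up 51.2% of calls with TMM, 48.7% with DESeq2's size factors and 49.9% with total counts, the size factors giving 4827 rises and 5087 falls. Among named genes 212 of 250 calls were kept under every alternative, 38 were lost under at least 1, 57 of 121 that did not pass were called under at least 1, and 0 reversed.

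Tests of differences between lines moved more. Against vector, 1 gene, *TXNL1*, was called by DESeq2 and 1, *TXNL1* again, without both outlying WT libraries (adjusted p 0.00551 and 0.00557), and 0 in each leave-one-out fit. Against SxxS, 2 (*MAT2A* and *NOP14*) were called by DESeq2, 1 (*MAT2A*) with only the groups compared, 10 without both outlying WT libraries, and 0 to 1 with 1 library left out, the 1 being *PDE6A* without SxxS arsenite replicate 3. Against WT, 169 were called by DESeq2, 313 without both outlying WT libraries, and 0 to 63 with 1 library left out. The nonzero counts were 4 without WT arsenite replicate 1, 4 without replicate 2 and 63 without replicate 3. The cause was not tested.

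Replicate numbers are shared between groups. In D162R R234D cells the deviations of same-numbered libraries had correlations of 0.088 to 0.206 and others of −0.137 to 0.053, so each correlated best with its own number there. Over the 4 lines the ranges were −0.496 to 0.206 and −0.459 to 0.509, and the numbers were not taken as pairs. With the replicate block 9768 genes were called (4987 higher, 4781 lower), and 0 in each test between lines. Fold changes of genes close to the count filter rest on few reads, and halving the counts gave 9813 calls.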
